A study of Mus musculus with 6 samples.

Results

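The aminotransferases of mouse liver were followed through 10 genes, *Agxt*, *Agxt2*, *Got1*, *Got2*, *Gpt*, *Gpt2*, *Tat*, *Oat*, *Psat1* and *Etnppl*, out of the 19938 genes measured on the arrays. The genes were chosen by name as aminotransferases of the liver, with earlier results of these data known. All 10 had a probe set whose annotation gave a single gene symbol. The arrays were hybridized with liver RNA from 3 Lkb1KOlivad mice (KO), numbered B253, B304 and B305, and 3 control mice (WT), numbered B256, B267 and B302, with 1 array for each animal, and all 6 mice are female in the labels. The study's methods describe Lkb1KOlivad mice as adult *Lkb1* fl/fl; TTR-CreTam animals on an FVB/N background, in which tamoxifen activates a Cre recombinase driven by the hepatocyte-specific transthyretin promoter. The controls were littermates with the same floxed *Lkb1* alleles and no Cre, also given tamoxifen, so both groups shared the floxed alleles and the drug. Deletion was restricted to hepatocytes, and the other cells of the liver kept *Lkb1*. The paper gives the mice as fasted, and the labels do not state the nutritional state or the age of each mouse. The comparison asked which aminotransferase mRNAs differed between livers that had lost Lkb1, a kinase upstream of Ampk that restrains glucose production, and control livers.

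Aminotransferases move the amino group of an amino acid onto a keto acid, using pyridoxal phosphate, a form of vitamin B6, as cofactor. In the fasted liver they turn the carbon of amino acids arriving from muscle into pyruvate, oxaloacetate and other precursors of glucose, and pass the nitrogen on through glutamate and aspartate to urea. Several of these enzymes exist as a cytosolic and a mitochondrial form encoded by separate genes, and the enzymes encoded by *Got1* and *Gpt* are measured in blood as signs of liver injury.

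*Stk11*, which encodes Lkb1, had a log2 signal of 6.42 to 6.52 in the mutant livers and of 7.96 to 8.24 in the control livers, a difference of -1.64 (SE 0.12, adjusted p = 0.00705 from limma). The array medians lay between 5.03 and 5.08. The mean of 11 measured hepatocyte markers lay between 12.0 and 12.2 in the mutant livers and between 11.9 and 12.2 in the controls. The arrays were of bulk liver, in which fewer cells of a type and less RNA per cell cannot be told apart. The labels do not state whether the mice were handled together. The p-values from limma set the difference between the groups against the spread within them, over these 6 mice.

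Of the 10 aminotransferase genes, *Agxt* was the only one whose mutant and control values did not overlap. None of them passed the test over all genes, with adjusted p = 0.9997 from limma for each and 0 of 10 under 0.05, beside 0.00502% of all genes, which is *Stk11* alone. The methods' t-test also called 0 of them after adjustment. At an unadjusted p under 0.05, *Agxt* alone was higher in the mutant livers, 1 of 10 beside 1.52% of all genes, and 0 of 10 were lower beside 1.51%. The methods' t-test gave the same counts for the 10 genes at that threshold. All 3 mutant values lay above all 3 control values for 1 of 10 genes, against 3.46% of all genes, and below them for 0 of 10, against 3.70%. These shares of all genes also stand behind the counts of every list below. *Agxt* was singled out by the study on these arrays, so these counts are not independent of the choice of genes. The difference between the group means was above 0 for 8 of the 10 genes, where 51.6% of all genes lay above 0. The median difference over the 10 genes was 0.18 on the log2 scale, and that over all genes was 0.0049. *Gpt* and *Psat1* were the genes with a difference below 0.

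**Figure D1:**
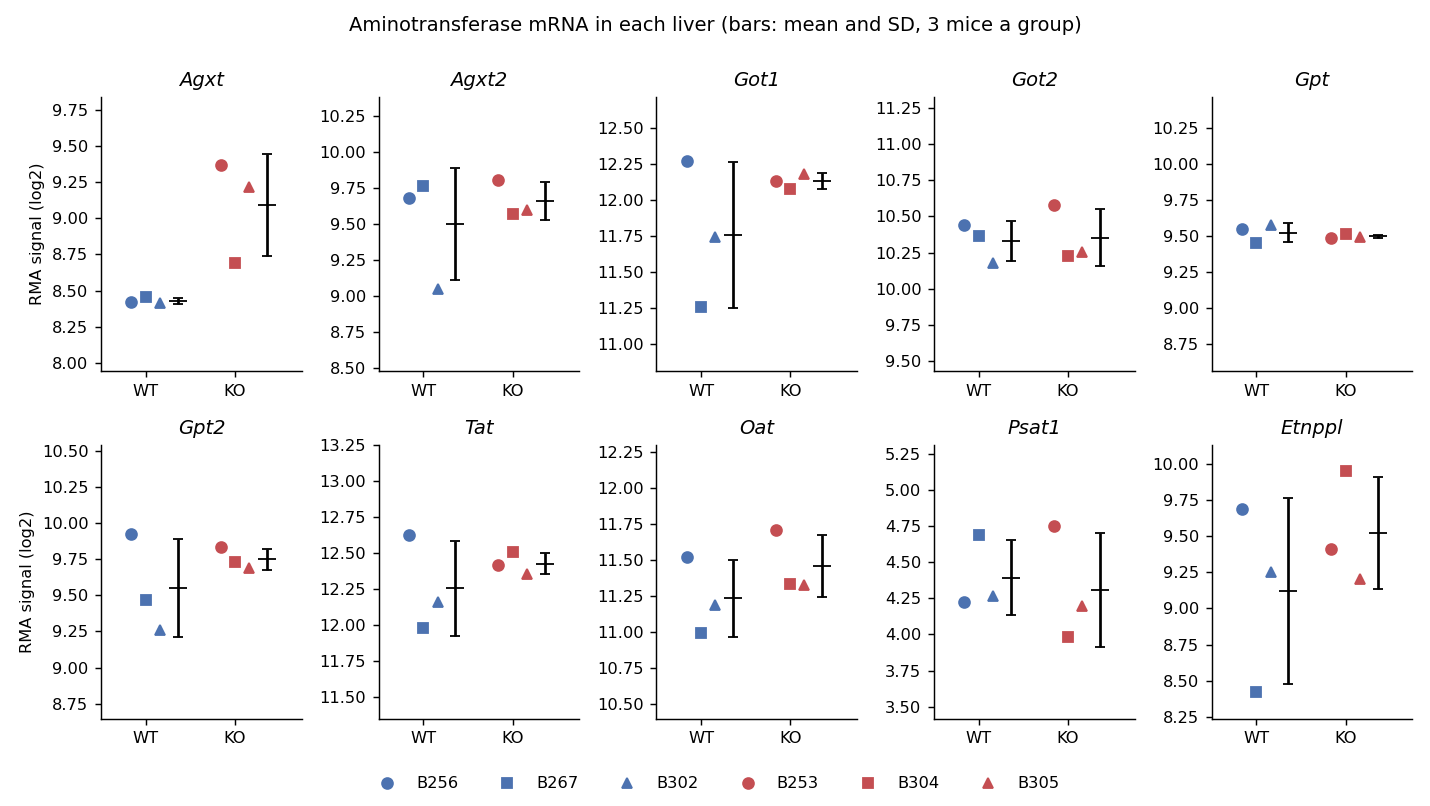
RMA signal (log2) of the 10 aminotransferase genes in the liver of each mouse, in panels that span the same log2 range, with 1 point per mouse and black bars for the group mean and SD (3 mice a group). The groups are apart in *Agxt* only, and control B256 lies above the 3 mutant mice in *Got1*, *Gpt2*, *Tat* and *Gpt*.

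*Agxt* (probe set 10348702) encodes the enzyme that converts glyoxylate to glycine with alanine as amino donor, and its loss in humans causes primary hyperoxaluria, in which glyoxylate is turned into oxalate. The log2 signal of *Agxt* was 9.37 in mutant mouse B253, 8.69 in B304 and 9.22 in B305, and 8.42 in control B256, 8.45 in B267 and 8.41 in B302. The controls thus sat within 0.043 of each other while the mutant mice spread over 0.68, and the lowest mutant mouse, B304, was 0.24 above the highest control. The signal was 1.59 times the control level (95% confidence interval 1.21 to 2.09), a log2 difference of 0.67 (SE 0.17), and ranked 45 among all genes from the largest positive difference. With 3 mice a group a two-sided exact permutation test cannot go below 0.1, and *Agxt* gave that value, p = 0.1. Only 1.70% of all genes had a smaller SD among the controls than *Agxt* (0.023), and 6.12% had a larger SD among the mutant mice (0.35). The interval from limma assumes the same spread in both groups, which *Agxt* did not have. The methods' t-test, which assumes the same, gave an SE of 0.21. The difference was 0.53 without B253, 0.87 without B304, and stayed above 0 in each of the 16 alternative analyses. The study picked *Agxt* out on these arrays, so its direction here is not independent evidence. The promoter of *Agxt* is shown because this was the gene in which the groups separated: the 250 bases before its start, 5′ to 3′ along the gene (RefSeq, GRCm38.p6), hold 1 match, in capitals, to AGAACA, the half-site of the glucocorticoid receptor, on the opposite strand.

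*Agxt*, chr1:93134990-93135239, plus strand: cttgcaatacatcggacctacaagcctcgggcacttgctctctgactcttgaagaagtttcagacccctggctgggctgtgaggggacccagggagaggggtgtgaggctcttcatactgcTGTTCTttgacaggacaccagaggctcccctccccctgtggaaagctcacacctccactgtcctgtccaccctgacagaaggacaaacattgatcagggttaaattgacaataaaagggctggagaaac

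The match began 129 bases before the start, and 16.1% of the 32851 promoter windows of that length held AGAACA on either strand. TATAAA (the TATA box), TGACG (the half-site of the cAMP response element), TGTTTAC (a forkhead core) and CCAAT were not found in this window, and were present in 12.4%, 17.8%, 3.17% and 33.8% of all windows. A match of letters is a description and not a site.

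*Agxt2* (probe set 10423053) encodes a mitochondrial enzyme that also uses glyoxylate and that breaks down β-aminoisobutyrate and methylated arginines. Its log2 signal was 9.81 (B253), 9.56 (B304) and 9.60 (B305) in the mutant mice, and 9.68 (B256), 9.76 (B267) and 9.05 (B302) in the controls. The groups overlapped, with control B302 lowest of the 6 mice and the other controls among the mutant values. This gave a log2 difference of 0.16 (SE 0.19, 95% confidence interval -0.28 to 0.59), and the sign turned without control B302 (-0.064). Within each group the mice had the same order in *Agxt* and *Agxt2* (r = 0.41 over the 6 mice). Control B302, the lowest mouse in both, was level with the other controls in *Agxt* only. Around these enzymes, 11 of 13 listed genes of glyoxylate and serine use were measured, with a median log2 difference of 0.14. At an unadjusted p under 0.05 from limma, 2 were higher and 0 lower, beside 1.52% and 1.51% of all genes, and 0 passed after adjustment. *Hao1*, which makes glyoxylate from glycolate and so supplies the substrate of *Agxt*, had signals of 9.62, 9.38 and 9.26 in the mutant mice and of 8.44, 9.17 and 9.09 in the controls, in the order above. All 3 mutant values of *Hao1* lay above the controls (log2 difference 0.52, SE 0.20), as in 3.46% of all genes. Control B256 was the lowest of the 6 mice. *Prodh2*, which breaks down hydroxyproline on the way to glyoxylate, had a log2 difference of 0.35 (SE 0.15) and groups that overlapped.

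*Got1* (probe set 10467842) encodes the cytosolic aspartate aminotransferase, which exchanges aspartate and oxaloacetate outside the mitochondrion and, in gluconeogenesis, regenerates oxaloacetate from exported aspartate. Its log2 signal was 12.13 (B253), 12.08 (B304) and 12.18 (B305) in the mutant mice, and 12.27 (B256), 11.26 (B267) and 11.74 (B302) in the controls. The mutant mice lay within 0.11 of each other, whereas the controls spread over 1.01, from the highest to the lowest of all 6 mice. Its log2 difference was 0.37 (SE 0.22, 95% confidence interval -0.14 to 0.88), or 1.30-fold, with p = 0.4 in the two-sided exact permutation test. Only 3.45% of all genes had a larger SD among the controls than *Got1* (0.50).

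*Got2* (probe set 10580969), the mitochondrial counterpart, had signals of 10.58, 10.22 and 10.26 in the mutant mice and of 10.44, 10.37 and 10.18 in the controls, in the same order. B253 was the highest mouse and B302 the lowest, and between them controls B256 and B267 lay above mutant mice B305 and B304, so that the groups overlapped. For *Got2* the log2 difference was 0.025 (SE 0.14, 95% confidence interval -0.29 to 0.34), and a second probe set of *Got2* gave 0.014. The 95% interval of *Got2* thus reached from 0.82-fold to 1.27-fold. Of 8 listed genes of the malate-aspartate shuttle and glutamate metabolism, 7 were measured, and 0 of 7 were higher or lower at an unadjusted p under 0.05 from limma. Their median difference was 0.14. *Mdh1*, the cytosolic malate dehydrogenase that works with *Got1* in the shuttle, had a log2 difference of 0.11 (SE 0.11), with mutant values of 11.07 to 11.13 and control values of 10.94 to 11.07, the lowest mutant value only just above the highest control. The largest positive and negative differences of the list were those of *Slc25a11*, the carrier of malate and oxoglutarate (0.38, SE 0.22), and *Glul*, glutamine synthetase (-0.20, SE 0.14), both with overlapping groups.

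*Gpt* (probe set 10424979) and *Gpt2* (probe set 10573626) encode the cytosolic and the mitochondrial alanine aminotransferase, which turn alanine, a main glucose precursor sent from muscle, into pyruvate. *Gpt* was the steadiest of the 10 genes across the 6 mice, with signals of 9.49 (B253), 9.51 (B304) and 9.49 (B305) in the mutant mice, and 9.54 (B256), 9.45 (B267) and 9.57 (B302) in the controls. The mutant values, within 0.022 of each other, lay inside the range of the controls. Its log2 difference was -0.027 (SE 0.11), and the 95% confidence interval ran from 0.83-fold to 1.16-fold.

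*Gpt2* had signals of 9.83, 9.73 and 9.69 in the mutant mice and of 9.93, 9.47 and 9.26 in the controls, in the same order. Controls B267 and B302 were below every mutant mouse, and control B256 was above every mutant mouse. This gave *Gpt2* a log2 difference of 0.20 (SE 0.17, 95% confidence interval -0.19 to 0.59), with p = 0.4 in the two-sided exact permutation test. For both alanine aminotransferases the arrays thus gave no separation of the groups, with a narrower interval for *Gpt* than for *Gpt2*. Among the genes that carry pyruvate on towards glucose, 7 of 9 listed were measured, with a median difference of -0.017 and 0 of 7 higher or lower at an unadjusted p under 0.05 from limma. *Fbp1*, fructose bisphosphatase, had a log2 difference of 0.23 (SE 0.18) and *Pck2*, the mitochondrial phosphoenolpyruvate carboxykinase, one of -0.15 (SE 0.15).

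*Tat* (probe set 10575349) encodes tyrosine aminotransferase, the first step of tyrosine breakdown and a classical target of glucocorticoids and fasting in liver. Its log2 signal was 12.42 (B253), 12.50 (B304) and 12.36 (B305) in the mutant mice, and 12.62 (B256), 11.98 (B267) and 12.16 (B302) in the controls. The order of the groups matched that of *Got1* and *Gpt2*, with control B256 highest, then the mutant mice, then the other 2 controls. *Tat* had a log2 difference of 0.17 (SE 0.17, 95% confidence interval -0.21 to 0.55), with p = 0.5 in the two-sided exact permutation test. Of the 4 measured genes of the 5 listed for the later steps of tyrosine breakdown, 0 were higher or lower at an unadjusted p under 0.05 from limma, and the median difference was 0.076. *Hgd*, homogentisate dioxygenase, had a log2 difference of 0.30 (SE 0.16) and *Fah*, which completes the pathway, one of 0.084 (SE 0.15).

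*Oat* (probe set 10568568) encodes the mitochondrial ornithine aminotransferase, which links ornithine to glutamate and proline and so takes ornithine away from, or returns it to, the urea cycle. Its log2 signal was 11.70, 11.34 and 11.33 in the mutant mice and 11.52, 10.99 and 11.19 in the controls, in the order used for *Tat*. Mutant mouse B253 was highest and control B256 came next, ahead of the other 2 mutant mice, while controls B267 and B302 were the lowest. The log2 difference was 0.22 (SE 0.17, 95% confidence interval -0.16 to 0.61), or 1.17-fold, with p = 0.4 in the two-sided exact permutation test. Around *Oat*, 10 of 13 listed genes of proline, ornithine and urea metabolism were measured, with a median difference of 0.20. Beside 51.6% of all genes, 9 of these 10 lay above 0. *Slc25a2*, a mitochondrial ornithine carrier, was the one gene of them higher at an unadjusted p under 0.05 from limma, and 0 were lower (1.52% and 1.51% of all genes). Its signals were 4.54, 4.42 and 4.75 in the mutant mice and 4.23, 4.26 and 4.20 in the controls, all below the median of the array (log2 difference 0.34, SE 0.12). *Pycrl*, which makes proline, had a log2 difference of 0.40 (SE 0.19) with groups that overlapped.

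The promoters of *Got1*, *Tat* and *Oat* are shown because control B256 was the highest or second highest and B267 and B302 the lowest mice in all of them, and because each of them held CCAAT, in capitals, more than once in the 250 bases before its start (5′ to 3′ along the gene, either strand, RefSeq, GRCm38.p6). This was seen after their values were known.

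*Got1*, chr19:43524606-43524855, minus strand: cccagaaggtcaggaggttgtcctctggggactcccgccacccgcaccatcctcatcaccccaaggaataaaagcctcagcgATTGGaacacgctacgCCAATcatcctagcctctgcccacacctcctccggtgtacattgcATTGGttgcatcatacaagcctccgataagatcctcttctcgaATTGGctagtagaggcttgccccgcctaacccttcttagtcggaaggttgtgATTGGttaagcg

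*Tat*, chr8:109990186-109990435, plus strand: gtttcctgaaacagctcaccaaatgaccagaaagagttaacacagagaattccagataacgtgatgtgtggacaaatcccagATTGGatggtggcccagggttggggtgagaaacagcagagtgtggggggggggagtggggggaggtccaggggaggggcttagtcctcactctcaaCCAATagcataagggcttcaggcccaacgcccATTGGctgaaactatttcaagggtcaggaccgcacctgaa

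*Oat*, chr7:132576399-132576648, minus strand: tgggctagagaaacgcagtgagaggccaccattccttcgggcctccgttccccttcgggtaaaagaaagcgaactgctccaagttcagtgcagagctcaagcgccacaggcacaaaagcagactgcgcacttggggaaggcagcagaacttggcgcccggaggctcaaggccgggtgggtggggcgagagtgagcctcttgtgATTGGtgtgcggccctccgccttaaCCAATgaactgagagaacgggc

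*Got1* held 5 matches, which began 168, 152, 107, 64 and 12 bases before the start. *Tat* held 3, at 168, 72 and 40 bases, and *Oat* 2, at 47 and 22 bases. CCAAT was present in 33.8% of the 32851 windows, at least 3 times in 2.79% of them and at least 5 times in 0.213%. The share with at least 2, the number by which these promoters were picked, was not computed. *Psat1*, in which B256 was the lowest control, held 2 matches in the first of its 2 windows, and *Gpt2*, with the same order of mice as *Got1* for B256 against the other controls, held 0, as did *Etnppl*. The half-sites and the forkhead core were not found in the windows of *Got1*, *Tat* or *Oat*, and TATAAA was found in those of *Agxt2* and *Got2*, on the opposite strand, and in no other. Windows were given for 9 of the 10 genes, all but *Gpt*, with 2 windows for *Agxt2*, *Psat1* and *Etnppl*.

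*Psat1* (probe set 10466410) encodes phosphoserine aminotransferase, the middle step of serine synthesis, a pathway that is low in liver when dietary protein is ample. Its log2 signal was 4.75 (B253), 3.98 (B304) and 4.19 (B305) in the mutant mice, and 4.22 (B256), 4.69 (B267) and 4.26 (B302) in the controls. These values lay below the median of the arrays, and the highest and the lowest mouse were both mutant. The log2 difference was -0.084 (SE 0.21, 95% confidence interval -0.57 to 0.40), and its sign turned without B304, without B267, in a fit that blocked on the series of mouse numbers, and among the mice numbered B253 to B267 alone (0.29). The genes of the other steps had differences of opposite sign. *Phgdh*, the first step, had signals of 5.39, 5.43 and 5.77 in the mutant mice and of 6.03, 6.05 and 6.27 in the controls. Every mutant mouse was below every control (log2 difference -0.58, SE 0.14), and *Phgdh* was lower at an unadjusted p under 0.05 from limma but not after adjustment. Of all genes, 3.70% had all mutant values below the controls, and 1.51% were lower at that threshold. *Psph*, the last step, had mutant values of 5.85 to 6.25 that lay above the control values of 5.75 to 5.81 (log2 difference 0.29, SE 0.13), short of the unadjusted threshold.

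*Etnppl* (probe set 10496077) encodes ethanolamine-phosphate phospho-lyase, which is built like an aminotransferase and uses the same cofactor but splits phosphoethanolamine. Its log2 signal was 9.41, 9.95 and 9.20 in the mutant mice and 9.69, 8.42 and 9.26 in the controls, in the order used for *Psat1*. Mutant mouse B304 was highest and control B267 was the lowest, and the other 4 mice were interleaved. The log2 difference was 0.40 (SE 0.31, 95% confidence interval -0.31 to 1.11), with p = 0.5 in the two-sided exact permutation test. The difference was 0.050 without control B267 and 0.68 without control B256. Only 1.41% of all genes had a larger SD among the controls than *Etnppl* (0.65). Of 6 listed genes that make or use phosphoethanolamine, 5 were measured, with a median of 0.091 and 0 higher or lower at an unadjusted p under 0.05 from limma. *Chka*, a kinase of choline and ethanolamine, had a log2 difference of 0.41 (SE 0.28) and *Selenoi*, which uses CDP-ethanolamine, one of 0.19 (SE 0.18). Of the 4 genes listed for the supply of pyridoxal phosphate, 3 were measured, with a median of 0.13 and the same counts of 0. *Pdxp*, which removes the phosphate, had a log2 difference of 0.31 (SE 0.20) and *Plpbp*, which binds the cofactor, one of 0.13 (SE 0.11).

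Across the 10 genes, the order of the mice followed the groups in *Agxt* alone. Mutant mouse B253 was the highest of the 6 mice in 5 genes and the lowest in 0. Control B256 was the highest in 3 genes and the lowest in 0, and exceeded every mutant mouse in 4 genes (*Got1*, *Gpt*, *Gpt2* and *Tat*). Controls B267 and B302 were the lowest in 5 and 4 genes. Relative to the control mean, the mean over the 10 genes was 0.34 in B253, 0.15 in B304 and 0.14 in B305, and 0.22 in B256, -0.12 in B267 and -0.10 in B302. Control B256 therefore lay among the mutant mice on this mean, between B253 and the other 2. In 5 genes, *Agxt*, *Got1*, *Gpt2*, *Tat* and *Oat*, both B267 and B302 were below every mutant mouse, and of these *Agxt* alone had B256 there too. The SD was smaller among the mutant mice than among the controls in 7 of the 10 genes, beside 56.7% of all genes, and *Agxt*, *Got2* and *Psat1* were the exceptions.

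**Figure D2:**
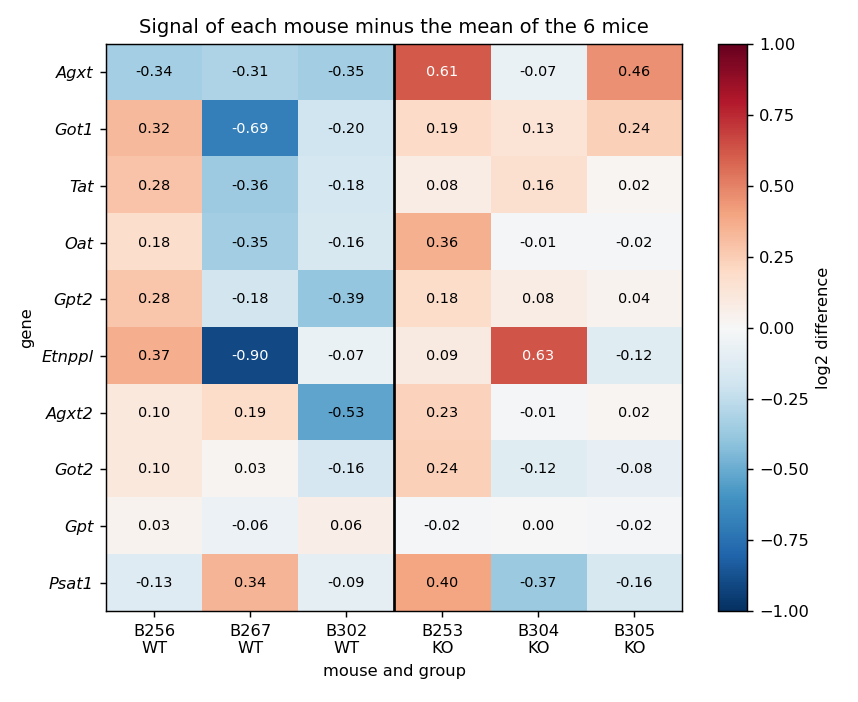
Log2 signal of each mouse minus the mean of the 6 mice (colour and printed value) for each gene, with the controls on the left of the line and the mutant mice on the right. Control B256 is 0.18 to 0.37 above the mean in *Got1*, *Tat*, *Oat*, *Gpt2* and *Etnppl* and 0.34 below it in *Agxt*.

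Leaving out each mouse in turn changed the counts of higher genes for 1 mouse. Without control B256, 5 of the 10 genes (*Agxt*, *Got1*, *Gpt2*, *Tat* and *Etnppl*) were higher at an unadjusted p under 0.05 from limma, beside 2.61% of all genes, and 5 (*Agxt*, *Got1*, *Gpt2*, *Tat* and *Oat*) had all mutant values above the remaining controls, beside 9.38%. Without any of the other mice, *Agxt* alone met either description. The log2 difference without B256 was 0.63 for *Got1*, 0.38 for *Gpt2*, 0.36 for *Tat* and 0.37 for *Oat*, and *Agxt* stayed at 0.66. None of the 10 genes passed after adjustment in that analysis either, with adjusted p of at least 0.9990 from limma. B256 carries the control label and a control level of *Stk11* (8.24), and nothing in the labels sets it apart, so the analysis of all 6 mice stands as the result.

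**Figure D3:**
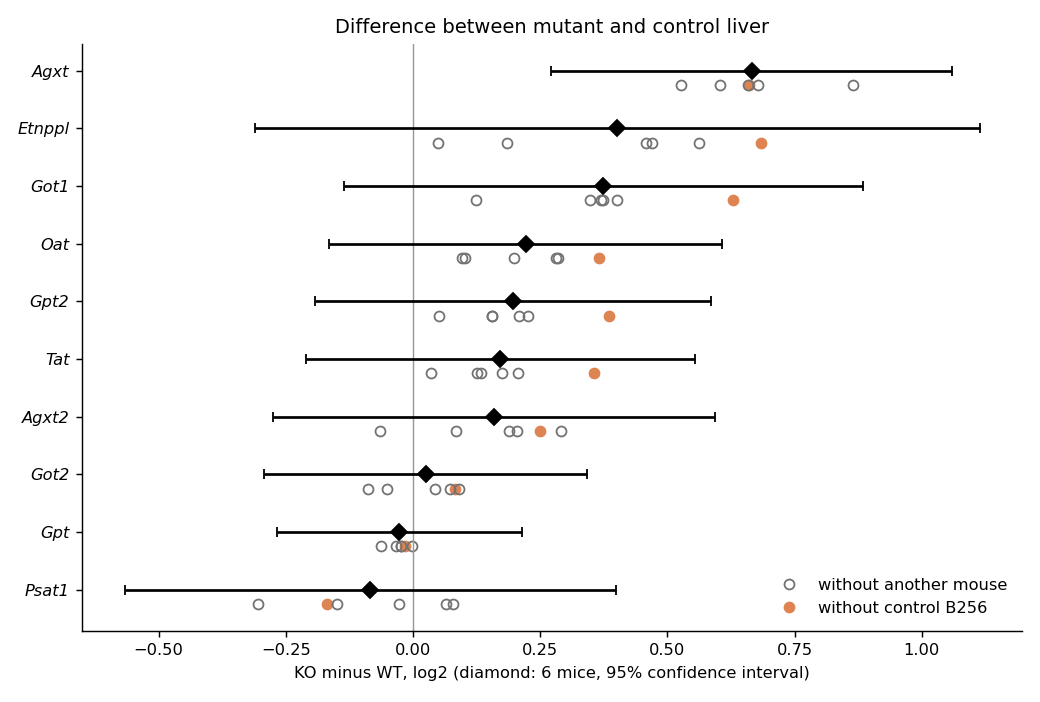
Difference between the mutant and the control mean (log2) for each gene, with its 95% confidence interval over all 6 mice (diamonds and bars), and the same difference with each mouse left out in turn (circles). The interval of *Agxt* alone lies above 0, from 0.27 to 1.06, and the intervals assume the same spread in both groups. The differences without control B256 (filled circles) are the largest for *Got1*, *Gpt2*, *Tat*, *Oat* and *Etnppl*.

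Genes known to respond to fasting or glucocorticoids, as *Tat* does, were set beside this pattern. Of 12 listed, 11 were measured, with a median difference of 0.077. The mean of the list was 0.31 above the control mean in B256, against 0.21 (B253), 0.079 (B304) and 0.098 (B305) in the mutant mice and -0.21 (B267) and -0.10 (B302) in the other controls. B256 was thus highest of the 6 mice in the mean of this list and B267 the lowest, and B267 was also the lowest in *Got1*, *Gpt*, *Tat*, *Oat* and *Etnppl*. Gene by gene, B256 was the highest of the 6 mice in 5 of the 11 (*Igfbp1*, *Pdk4*, *Fkbp5*, *Per1* and *Sgk1*) and the lowest in 1 (*Fgf21*). Mutant mouse B253 was the highest in 4 (*Fgf21*, *Cpt1a*, *Angptl4* and *Nr1d1*) and the lowest in 2 (*Fkbp5* and *Per1*). These genes were named after their values were seen. The signal of B256 was 10.99 for *Igfbp1* and 7.80 for *Pdk4*, above the other 5 mice, and 4.11 for *Fgf21*, below them. Whether the nutritional or hormonal state of the mice had a part in the values of the aminotransferases was not tested. Beside 1.52% and 1.51% of all genes, 1 gene of the list was higher and 0 lower at an unadjusted p under 0.05 from limma. This was *Tsc22d3*, a glucocorticoid target, with signals of 7.15, 7.46 and 6.91 in the mutant mice and of 6.61, 6.59 and 6.39 in the controls (log2 difference 0.64, SE 0.16). Unlike *Tat*, *Tsc22d3* separated the groups, with B256 among the controls, as 3.46% of all genes did in this direction. *Ppargc1a*, a coactivator of gluconeogenic genes, had a log2 difference of 0.56 (SE 0.25) with groups that overlapped.

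The make-up of the samples was described with marker lists. The mean of the hepatocyte markers relative to the control mean was 0.15 in B253, -0.0027 in B304 and -0.062 in B305, and 0.17 in B256, -0.036 in B267 and -0.14 in B302, so that B253 and B256, high for most aminotransferases, were also the highest here. Whether this mean had a part in the values of the 10 aminotransferases was not tested. Of the 11 hepatocyte markers, 0 were higher or lower at an unadjusted p under 0.05 from limma, with a median of 0.023, and the 2 with the smallest p were *Hp* (0.16) and *Apoa1* (-0.098). The 8 stellate cell markers all had differences below 0 (median -0.17), where 51.6% of all genes lay above 0. *Lrat* (-0.43, all mutant values below the controls) and *Rgs5* (-0.54) were lower at the unadjusted threshold, beside 1.51% of all genes. The mean level of the 8 markers was 6.05 to 6.24 in the mutant livers and 6.28 to 6.45 in the controls, without overlap. The 8 sinusoidal endothelial markers (median -0.17, *Stab2* -0.31 and *Oit3* -0.27) and the 8 Kupffer cell markers (median -0.16, *Timd4* -0.31 and *Marco* -0.28) had 0 genes past the threshold and overlapping means. The means of the 5 cholangiocyte, 7 lymphocyte, 6 neutrophil and 4 pancreatic acinar markers also overlapped between the groups, with medians of -0.0017, -0.093, 0.14 and -0.14. In these lists *Cd79a* was higher (0.42) and *Nkg7* lower (-0.54) at the unadjusted threshold, with groups that did not overlap. Of the 7 lymphocyte markers, 1 had all mutant values above the controls and 3 below, beside 3.46% and 3.70% of all genes. *Epcam* (-0.21), *Cd3e* (-0.22) and *Cd3d* (-0.16) had all mutant values below the controls, and the remaining genes with the smallest p were *Krt19* (0.16), *S100a8* (0.36), *S100a9* (0.49), *Cpa1* (-0.26) and *Cela3b* (-0.24). Whether these markers had a part in the difference of *Agxt* was not tested.

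Amino acid breakdown and gluconeogenesis are strongest in the hepatocytes near the portal vein. Of 8 listed periportal genes, 5 were measured, with a median difference of -0.017. Beside 1.52% and 1.51% of all genes, 1 of these genes was higher and 0 lower at an unadjusted p under 0.05 from limma. This was *Aldh1b1*, an aldehyde dehydrogenase (0.73, SE 0.20), whose mutant values of 7.62 to 8.04 lay above control values of 6.62 to 7.37. *Cyp2f2*, a cytochrome P450, followed at 0.45 (SE 0.21) with overlap. The other 3 periportal genes had differences below 0, *Hal* (-0.064), *Hsd17b13* (-0.044) and *Pck1* (-0.017), all with overlap. The 8 pericentral genes all had differences below 0 (median -0.18), where 51.6% of all genes lay above 0. *Cyp1a2* was lower at the unadjusted threshold (-0.39, SE 0.16), beside 1.51% of all genes, and *Lgr5*, a Wnt receptor, was at -0.32 (SE 0.17). Each of the 8 had groups that overlapped. Their mean level was 8.33 to 8.39 in the mutant livers and 8.50 to 8.61 in the controls, without overlap. *Cyp7a1* had the widest spread of the 8, from 8.48 in mutant mouse B253 to 10.66 in control B267. It weighs on these means, and the gap between them rests in part on this 1 gene. Whether the periportal or pericentral genes had a part in the values of *Agxt* was not tested.

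The 11 other aminotransferases on the arrays, those of branched-chain amino acids, kynurenine, aminoadipate, γ-aminobutyrate and hexosamine synthesis among them, did not separate the groups. At an unadjusted p under 0.05 from limma, 0 were higher and 0 lower, beside 1.52% and 1.51% of all genes. All mutant values lay above or below the controls in 0 of them, beside 3.46% and 3.70%. Counts of 0 in 11 genes are near those shares. The median difference was 0.053. The differences ran from -0.22 (*Accs*, SE 0.14) to 0.22 (*Kyat3*, a kynurenine aminotransferase, SE 0.16). The difference of *Agxt* (0.67) was the largest of both lists, and those of the 20 other genes ran from -0.22 to 0.40. The study had picked *Agxt* out on these arrays, so this rank is not independent evidence.

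**Figure D4:**
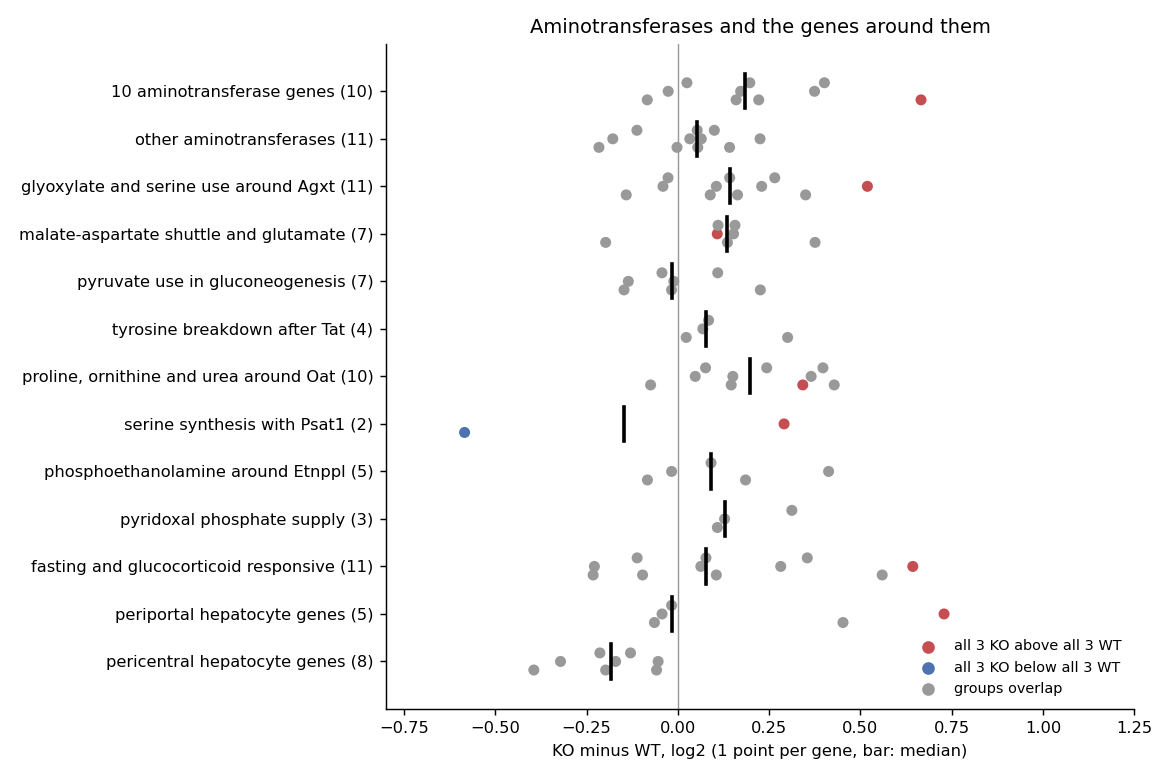
Difference between mutant and control livers (log2) of each measured gene, 1 point per gene, for the 10 aminotransferase genes and the lists of genes around them (number measured in brackets), with the median of each list as a black bar. Red and blue points are genes whose 3 mutant values lie all above or all below the 3 control values, as *Agxt*, *Hao1* and *Tsc22d3* (above) and *Phgdh* (below) do.

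The genes whose signal followed that of *Agxt* most closely over the 6 mice, by Pearson's r and with no test, were *Mir30d* (r = 0.988), *Calb2* (0.987), *Anapc11* (0.986), *Rnf125* (0.982) and *Ercc6l2* (0.971). They were picked as the highest of all genes over 6 mice that fall into 2 groups, and these values of r describe the choice and nothing more. *Rnf125*, an E3 ubiquitin ligase, had signals of 8.58 (B253), 8.19 (B304) and 8.38 (B305) in the mutant mice and of 7.93 (B256), 7.92 (B267) and 7.93 (B302) in the controls (log2 difference 0.46, SE 0.13). As in *Agxt*, the controls of *Rnf125* lay close together and B304 was the lowest mutant mouse. *Calb2* had signals of 3.02 to 3.19, well below the array medians, and a log2 difference of 0.10 (SE 0.11). The other members had r with *Agxt* from -0.40 (*Gpt*) to 0.59 (*Oat*) over the same 6 mice. These values cannot be compared with those of genes picked for the highest r, which must lie above them.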

How the data were processed

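Liver RNA of 3 Lkb1KOlivad and 3 control mice was analysed, with 1 array per mouse; groups came from the labels and no sample was left out. Per the labels, RNA was extracted with Trizol, amplified and biotin-labelled with NuGEN kits, and the authors deposited log2 signals made with RMA, a method of background correction, between-array normalization and probe set summary, and Partek. The study's methods name Mouse Gene 2.0 ST arrays, Expression Console and BRB-ArrayTools. The probe sets analysed here carried identifiers of an earlier array generation, so the values and the methods differ on the array design. Software versions were not given in the sources used here. Detection calls were not part of the values, and background correction was not repeated. Precision was limited by the number of arrays, with a median 95% half-interval of 0.32 for a difference.

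Of 35556 probe sets, 21789 had 1 gene symbol in an annotation of an earlier array generation and were used, 1621 had several and 12146 none. Symbols were updated by gene identifier (21698 found), and the probe set with the highest mean was taken for each of 999 genes with several, giving 19938 genes. Groups were compared with limma 3.58.1 under R 4.3.3 (lmFit and eBayes, no covariate, two-sided tests), p-values were adjusted by Benjamini and Hochberg's method across all genes at a threshold of 0.05, and single genes with the exact permutation test. The procedure was tested on simulated data. All 10 genes are given. Of each other list, the 2 genes with the smallest p and those whose groups did not overlap are named. *Stk11*, the 5 genes most correlated with *Agxt* and some further genes of the fasting, periportal and pericentral lists are named too. The genes and lists were chosen with earlier results of these data known. Alternatives were quantile normalization, median centring, leaving out dim genes, averaging probe sets, array weights, robust eBayes with an intensity trend, the t-test named in the methods, the mouse number series (B253 to B267, B302 to B305) as a block or taken singly, and leaving out each mouse. Promoter windows of 250 bases were searched as letters on both strands with Python 3.11.15, and figures were drawn with matplotlib 3.10.9.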

Additional observations from a re-analysis of the deposited data

How the results depend on the processing

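*Agxt* kept its direction in all 16 alternatives (0.53 to 0.93) and its unadjusted p under 0.05 in every alternative with a test; within the mice B253, B256 and B267 its difference was 0.93, and within B302, B304 and B305 it was 0.54, each resting on 1 mouse of a group. No aminotransferase gene passed after adjustment in any alternative. *Got1*, *Gpt*, *Gpt2*, *Tat*, *Oat* and *Etnppl* also kept their signs. The sign of *Got2* turned with quantile normalization (-0.028) and array weights (-0.024), and that of *Psat1* when the series of mouse numbers was a block (0.058) and among B253, B256 and B267 alone (0.29, against -0.17 among B302, B304 and B305). Leaving out each mouse gave -0.088 to 0.090 for *Got2*, -0.30 to 0.078 for *Psat1* and -0.064 to 0.29 for *Agxt2*. Over the same analyses, 1 to 5 of the 10 aminotransferases reached the unadjusted threshold as higher and 1 to 5 had all mutant values above the controls, 5 in each case without control B256, while 0 to 1 had them all below (*Psat1* without B253, *Gpt* without B267). Their median difference was 0.083 to 0.36, the highest without B256. Over all genes, 0 to 1 passed after adjustment, 199 to 521 were higher and 189 to 444 lower at the unadjusted threshold, lowest without B304, with 521 without B256. Leaving out dim genes, *Psat1* among them, left 152 higher and 134 lower, from 9969 genes tested. The methods' t-test called 0 genes after adjustment, and the series block made 589 higher. The cause of these changes was not tested beyond the fewer genes or mice. Within the 2 series of mouse numbers the median over the 10 genes was 0.23 and 0.30, and counts of calls were not computed there, where a group has 1 mouse. No paired analysis was possible because the labels give no shared replicate numbers. With 3 mice a group, differences as small as those of most of these genes could not be told from 0, and dim signals such as *Psat1* carry little information.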
